A study of Rattus norvegicus with 20 samples.

Results

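A set of 9 genes of acid and bicarbonate transport was followed in the oesophagus of rats with surgically induced reflux oesophagitis: Slc26a9, Slc9a2, Slc9a3, Slc4a2, Slc4a4, Car2, Car12, Atp4a and Cftr. They were chosen by name, as the non-control rows of the 20 scanner files whose gene name is one of these 9, out of 19280 genes named on the array. The array names 8 of the 9 in this way, and Car2 stands on it under the older symbol Ca2 and was matched by its transcript accession. These 9 genes had 15 probes, and 7 of the 9 genes could be tested, since neither Slc9a3 nor Cftr had a probe well above background on at least 4 arrays.

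Tissue RNA of Wistar rats was hybridised to one-colour (Cy3) Agilent arrays, in 5 groups of 4 arrays. The series' design text gives 4 animals a group, while the sample titles number replicates and name no animal. One group had a sham operation, and the other 4 groups had the reflux operation. Of these, the untreated group got no drug, the STW5 low dose group got 0.5 ml/kg and the STW5 high dose group got 2 ml/kg of STW5, a herbal preparation given for functional gut complaints. The omeprazole group got 30 mg/kg of omeprazole, a proton pump inhibitor, and each drug was given for 7 days before and 10 days after the operation. The samples are whole tissue, so fewer cells of a type and less RNA per cell cannot be told apart. No source used here says more of how animals were allotted to groups.

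The acid-base balance of an epithelium rests on proteins that move protons and bicarbonate across its membranes and on enzymes that make both from carbon dioxide. Na+/H+ exchangers expel protons in exchange for sodium, Cl-/HCO3- exchangers and Na+-HCO3- cotransporters move bicarbonate, and carbonic anhydrases supply it. The gastric H+/K+-ATPase of parietal cells secretes the acid of the stomach and is the target of omeprazole. The oesophagus of the rat is lined by a cornified squamous epithelium over muscle that is largely striated, and holds no parietal cells.

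Some facts of the arrays bear on what follows. Between 61.5% and 70.5% of features were well above background, no feature was saturated, and the 75th percentile of signal lay between 563 and 1078 scanner units. Low-dose replicates 1 and 2 differed from each other hardly more than spots of 1 array do, by a ratio of 1.12 in spread, where the closest other pair of a group had 2.62, so their mean was used as 1 sample and that group has n = 3. Whether these arrays carry the same RNA was not tested. Slide 1 carried the sham arrays, slide 2 those of untreated and low-dose animals and slide 3 those of high-dose and omeprazole animals, so slide and group cannot be told apart except for low dose against untreated and for high dose against omeprazole. The STW5 doses are not settled. The deposited value table gives all 8 STW5 arrays the values of the other dose's scanner file, and the series' design text numbers the dose groups the opposite way from the sample titles. The doses are named after the scanner files here, and every statement about 1 dose would pass to the other under the value table.

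Among cell type markers, those of squamous epithelium were high, with Krt4, Krt13 and Krt5 well above background on 20 of 20 arrays. Some markers of gastric glands stood out in 1 animal: in sham replicate 4 the stomach mucosal transcripts Tff1 and Gkn1 reached 16689 and 6901 units, against at most 836 and 402 units on any other array. Cblif, Muc5ac and Chia, also made in the stomach, were well above background on 0 of 20 arrays. Of 12 gastric gland markers on the array 8 were tested and 0 changed with the operation. Their summed level was 0.459 to 42.2 in sham samples, with a median of 0.851, and at most 3.44 in any other sample. Gkn2, Tff2 and Atp4b were also highest in that animal, while Pgc, Muc6 and Gast were not. Pgc, well above background on 20 of 20 arrays, was highest in untreated replicate 2 at 1255 units and in low-dose replicate 4 at 595, and read 86.5 in sham replicate 4. Muc6 was highest in omeprazole replicate 3 at 284 units (85.7 in sham replicate 4), and Gast in omeprazole replicate 2 at 159 units and lowest in sham replicate 4 at 39.7. For Slc26a9 and Slc9a2 the differences from sham are given without sham replicate 4 as well, and without it none of the other 5 tested genes was called against sham.

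Of the 15 probe sequences 4 are printed, from the deposited scanner files with their rn4 coordinates, because the findings turn on what these probes measured. The first pair belongs to Atp4a, whose probes gave different patterns, the next to the second probe of Slc26a9, and the last to the second probe of Slc4a2, where capitals mark a TAG stop codon that closes an open reading frame. The Atp4a probes lie on the plus strand at chr1:85757289-85757348 (upstream) and chr1:85768945-85769004 (downstream), the Slc26a9 probe on the plus strand at chr13:44692615-44692674, and the Slc4a2 probe on the minus strand at chr4:6100935-6100994.
Atp4a upstream probe: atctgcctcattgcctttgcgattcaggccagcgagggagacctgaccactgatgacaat
Atp4a downstream probe: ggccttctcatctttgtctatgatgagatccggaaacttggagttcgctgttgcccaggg
Slc26a9 second probe: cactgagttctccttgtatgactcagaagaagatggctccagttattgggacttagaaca
Slc4a2 second probe: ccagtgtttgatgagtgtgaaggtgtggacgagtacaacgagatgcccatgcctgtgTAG

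Promoters are printed for both genes that changed with the operation and for Atp4a, the gene of the omeprazole target, as the 250 bases before the start site in the RefSeq table of build GRCr8, plus strand. They lie at chr13:45729833-45730082 for Slc26a9, chr9:50427362-50427611 for Slc9a2 and chr1:95088872-95089121 for Atp4a. Capitals mark every match, on both strands, to TATAAA (the TATA box), to CCAAT (the CAAT box) and to GGGCGG (the GC box).
Slc26a9: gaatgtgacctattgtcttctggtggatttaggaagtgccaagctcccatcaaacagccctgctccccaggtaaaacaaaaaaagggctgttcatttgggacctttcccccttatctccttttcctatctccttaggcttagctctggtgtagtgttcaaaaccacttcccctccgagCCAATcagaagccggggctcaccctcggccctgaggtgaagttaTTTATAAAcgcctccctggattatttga
Slc9a2: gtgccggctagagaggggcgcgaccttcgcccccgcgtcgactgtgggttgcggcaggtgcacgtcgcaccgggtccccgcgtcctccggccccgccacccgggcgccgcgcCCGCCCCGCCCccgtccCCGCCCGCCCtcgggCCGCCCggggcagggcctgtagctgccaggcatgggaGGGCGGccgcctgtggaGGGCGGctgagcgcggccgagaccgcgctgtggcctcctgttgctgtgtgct
Atp4a: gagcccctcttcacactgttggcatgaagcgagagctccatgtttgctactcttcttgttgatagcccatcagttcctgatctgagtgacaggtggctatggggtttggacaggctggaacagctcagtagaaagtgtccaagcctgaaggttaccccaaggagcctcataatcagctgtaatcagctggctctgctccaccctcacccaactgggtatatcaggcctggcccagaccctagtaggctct

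The Slc26a9 window had 48.8% G and C, 2 overlapping TATAAA matches on opposite strands that began 28 and 26 bases before the start, and 1 CCAAT match 72 bases before it. These positions count from the end of the window. The Slc26a9 locus itself is listed from base 45730022 of chromosome 13, which lies inside the window, so the 2 starts differ for this gene. The Slc9a2 window had 79.6% G and C, with 7 GGGCGG matches between 138 and 52 bases before the start, some of which overlapped, and no TATAAA and also no CCAAT. For Slc9a2 the RefSeq table holds 2 entries, of which the first is shown. The Atp4a window, with 53.2% G and C, held none of these 3 motifs. Over 33469 promoter windows of the same length, 12.9% held TATAAA, 34% held CCAAT and 30.5% held GGGCGG. A match is a description of the letters and not a binding site.

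Levels are log2 of the scanner signal minus the log2 of that array's 75th percentile, so that 0 is the signal which 25% of features exceed. Differences were tested with limma over 13597 genes in 1 fit of 19 samples, and a gene was called at a Benjamini-Hochberg adjusted p under 0.05. Folds refer to scanner signals as scaled. The compared groups share arrays, since untreated and sham samples enter several comparisons.

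With the operation, 2 of the 7 tested genes fell, Slc26a9 and Slc9a2, and none rose. Of all genes tested in untreated against sham, 32.9% were called and 17.9% were called lower. Both genes were higher with low-dose STW5 and with omeprazole than in untreated animals, and Slc9a2 also with the high dose. Slc4a2, Slc4a4, Car2, Car12 and Atp4a were not called by the probes used in any of the 10 comparisons. The plot of levels shows the 7 tested genes by sample.

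**Figure D1:**
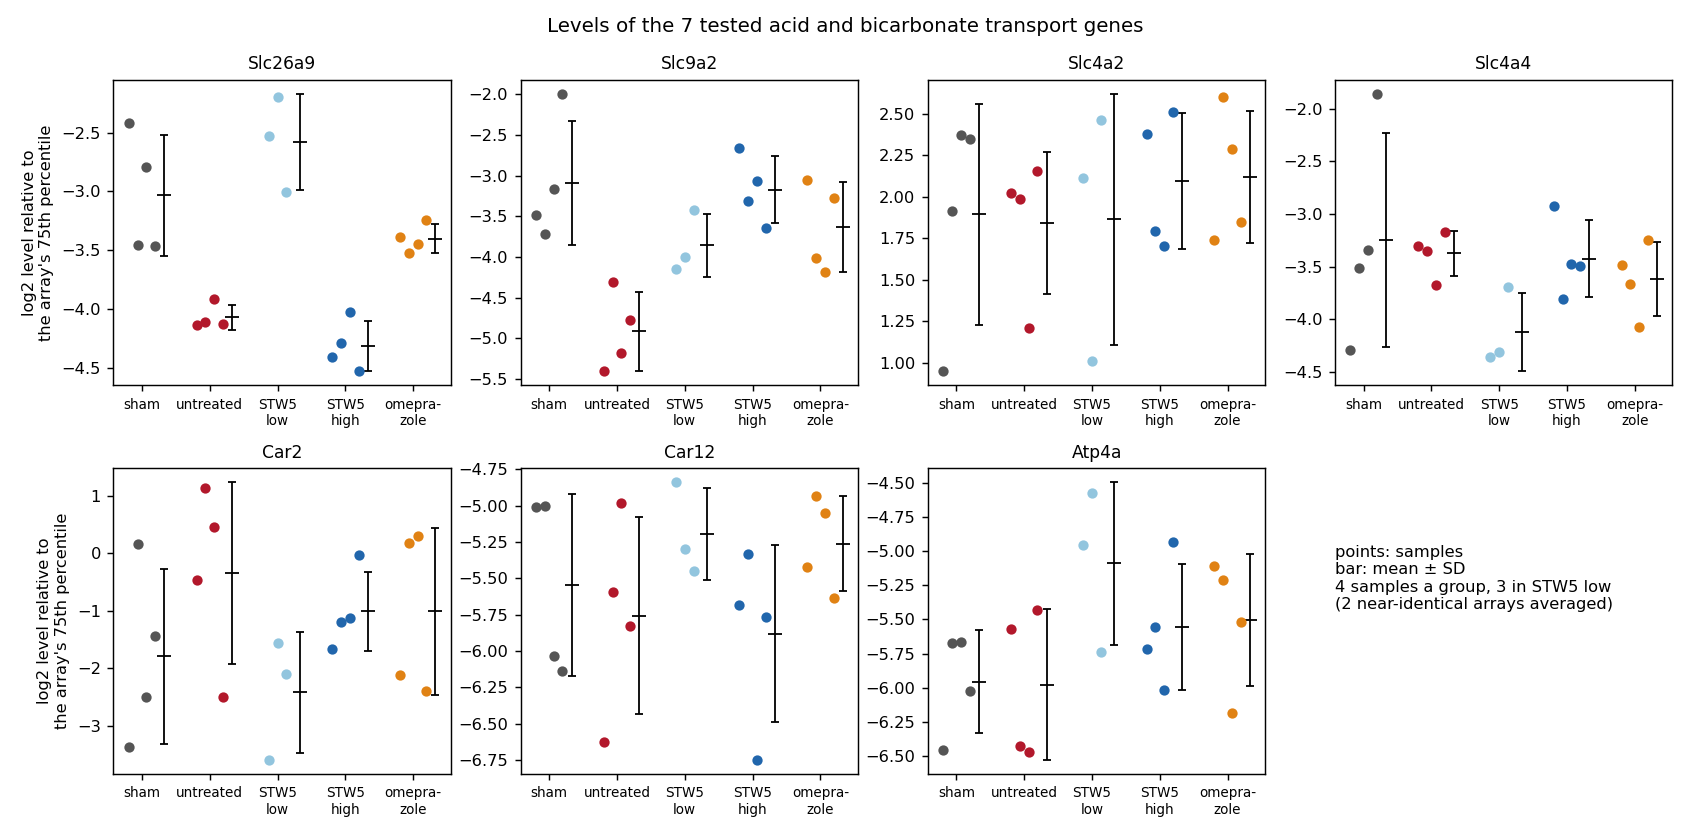
Log2 level relative to the array's 75th percentile (vertical axis) of each tested gene in the 5 groups. Points are samples and bars are the mean ± SD of 4 samples, or 3 for low-dose STW5. The untreated points of Slc26a9, at -3.92 and below, and of Slc9a2, at -4.30 and below, lie under every sham point of the same gene.

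Slc26a9 encodes an anion transporter that works as a chloride channel and in chloride-bicarbonate exchange, known from airway and gastric epithelium. Its signal was low but well above background on 20 of 20 arrays, at 34.9 to 139 units. In sham animals its level was -2.42, -3.46, -2.79 and -3.46, and in untreated animals -4.13, -4.11, -3.92 and -4.13. All untreated animals lay below all sham animals, as was so for 12.7% of all genes, and they lay closer together, with SDs of 0.11 and 0.52 (n = 4 each). Slc26a9 fell by 1.04 ± 0.22 (SE) on the log2 scale, 2.06-fold, with the operation (limma adjusted p = 0.00228). Without sham replicate 4 the difference was -1.18 (adjusted p = 0.00154).

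Low-dose STW5 samples had Slc26a9 levels of -2.53, -2.19 and -3.01. They lay above all untreated samples and overlapped the sham samples, with the highest above every sham sample. The mean was 0.46 above that of sham, and 0.31 without sham replicate 4, and neither difference was called. The difference from untreated was 1.5 ± 0.24, or 2.82-fold (adjusted p = 0.00034), and this comparison lies within slide 2. Fitted on these 2 groups alone, the difference was again 1.5, with an adjusted p of 0.0133.

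High-dose STW5 samples, by contrast, had -4.41, -4.29, -4.03 and -4.53, which overlap the untreated samples. Against untreated, the difference was -0.24 ± 0.22 (adjusted p = 0.495), with a 95% interval of -0.70 to 0.22. The high-dose group lay wholly below sham, as it did for 8.54% of all genes, by 1.28 ± 0.22, 2.43-fold (adjusted p = 0.00197), and by 1.42 without sham replicate 4 (adjusted p = 0.00141). It was also lower than the low-dose group by 1.74 ± 0.24, 3.34-fold (adjusted p = 0.000241), with no overlap, as for 20.9% of all genes. That direct comparison of the doses lies across slides, and its sign turns if the value table assigns the doses correctly.

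With omeprazole, the level of Slc26a9 was -3.39, -3.53, -3.45 and -3.24. All 4 animals lay above all untreated animals and overlapped the sham group, and without sham replicate 4 the difference from sham was -0.51 (adjusted p = 0.541). The difference from untreated was 0.67 ± 0.22, or 1.59-fold (adjusted p = 0.0314). The call was lost when untreated replicate 1, 2 or 4 or omeprazole replicate 1, 3 or 4 was left out, with adjusted p between 0.0517 and 0.0832 and differences between 0.62 and 0.69. It was also lost under 3 other scalings or background corrections. With normexp background correction the difference was 0.22 (adjusted p = 0.306).

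In order of mean, Slc26a9 was highest with low-dose STW5 (-2.58 ± 0.41, SD), then in sham (-3.03 ± 0.52), with omeprazole (-3.40 ± 0.12), in untreated (-4.07 ± 0.11) and with high-dose STW5 (-4.31 ± 0.21). Of neighbours in this order, only omeprazole and untreated were called different. High dose and omeprazole, which share slide 3, did not overlap, and high dose lay wholly below omeprazole for 10.7% of all genes. Their difference was -0.91 ± 0.22 (adjusted p = 0.103), and it was called in a fit of these 2 groups alone (-0.91 ± 0.14, adjusted p = 0.0108). Low dose lay above omeprazole without overlap, as for 12.4% of all genes, by 0.83 ± 0.24 (adjusted p = 0.0717), and this was called without low-dose replicate 4 (1.04, adjusted p = 0.0254).

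The second Slc26a9 probe, whose sequence is printed above, gave the same order of groups. It was well above background on 3 of 4 sham, 0 untreated, 4 low-dose, 0 high-dose and 2 omeprazole arrays. For a group below background on all arrays, a fold was computed against the lowest signal well above background on each of that group's arrays. It is a lower bound where the other group was above background on all its arrays. By this bound, low dose was at least 2.38-fold higher than untreated. The folds of 1.51 for sham and 1.31 for omeprazole include values below background in those groups, so they are not bounds. None of these folds was tested. The limma tests of the measured levels, which include values below background, gave adjusted p of 0.0359 for sham, 0.00634 for low dose and 0.0681 for omeprazole. Over the 19 samples the probes of Slc26a9 correlated at r = 0.86, as a description, since they share arrays.

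Markers of the outer layers of the squamous epithelium were likewise highest with the low dose and lowest in untreated and high-dose samples. Of 12 listed, 11 were tested, and 8 fell and 0 rose with the operation, where 17.9% of all genes were called lower. The summed level of the 12, relative to the 75th percentile, was 801 to 1619 in sham, 340 to 1061 in untreated, 1279 to 1940 in low-dose, 671 to 762 in high-dose and 1079 to 1154 in omeprazole samples. The part of these cells in the Slc26a9 result was not tested.

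Slc9a2 encodes NHE2, a Na+/H+ exchanger of the apical membrane of gut epithelia. It was measured by 1 probe with 2 spots, well above background on 20 of 20 arrays at 20.2 to 175 units. Sham levels were -3.48, -3.72, -3.17 and -1.99, and untreated levels -5.40, -4.30, -5.17 and -4.78. The groups did not overlap, and sham replicate 4, the animal with the highest Tff1 and Gkn1 signals, was the highest of all samples. Slc9a2 fell by 1.82 ± 0.36, 3.54-fold, with the operation (adjusted p = 0.00162), and by 1.46 ± 0.32 without that animal (adjusted p = 0.00372).

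Every drug group had higher Slc9a2 than untreated animals, with no overlap. In high-dose samples it was -2.67, -3.31, -3.07 and -3.64, a difference of 1.74 ± 0.36, or 3.35-fold (adjusted p = 0.00831). Of all genes, 9.49% were called in high dose against untreated, and 5.13% were called higher. Slc9a2 was the 1 of the 7 tested genes called in that comparison, and its call was lost with normexp background correction (0.69, adjusted p = 0.0516).

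In omeprazole samples Slc9a2 was -3.05, -4.01, -4.18 and -3.27, a difference of 1.28 ± 0.36, or 2.44-fold (adjusted p = 0.0153). In low-dose samples it was -4.15, -4.0 and -3.42, a difference of 1.06 ± 0.39, or 2.08-fold (adjusted p = 0.0434). With Slc26a9 this makes 2 of the 7 tested genes higher in each of these comparisons. Of all genes tested, 27.7% were called with omeprazole and 15.6% were called higher. With the low dose these shares were 37.6% and 21.7%. Groups lay wholly above untreated for 15.5% of all genes with omeprazole, 22.1% with the low dose and 9.66% with the high dose.

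The low-dose call of Slc9a2 was marginal and was lost in 10 of 19 alternatives. Among these, it was lost when untreated replicate 1, 3 or 4, low-dose replicates 1 and 2, low-dose replicate 3 or low-dose replicate 4 was left out, with differences between 0.84 and 1.2 and adjusted p up to 0.149. Within slide 2 alone the difference was 1.06 ± 0.32 (adjusted p = 0.0518). The omeprazole call was lost without untreated replicate 1 (1.12, adjusted p = 0.0502) and without omeprazole replicate 1 (1.09, adjusted p = 0.0504), and with normexp (0.41, adjusted p = 0.183).

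By group mean, Slc9a2 ran from sham (-3.09 ± 0.77, SD) through high dose (-3.17 ± 0.41), omeprazole (-3.63 ± 0.55) and low dose (-3.86 ± 0.39) to untreated (-4.91 ± 0.48). Sham came first only with sham replicate 4, since the mean of the other 3 sham samples was -3.46 ± 0.27, below the high dose. Of neighbours in this order, only low dose and untreated were called different. None of the 3 drug groups was called different from sham in Slc9a2. The differences were -0.08 with a 95% interval of -0.85 to 0.69 for the high dose, -0.54 (-1.31 to 0.23) for omeprazole and -0.77 (-1.60 to 0.06) for the low dose. Without sham replicate 4 the sign turned for the high dose, to 0.29, and the differences were -0.17 for omeprazole and -0.40 for the low dose, none of them called. The orders of groups differ between Slc26a9 and Slc9a2, and over the 19 samples their levels correlated at r = 0.12, as a description. The plot of differences sets both genes side by side.

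**Figure D2:**
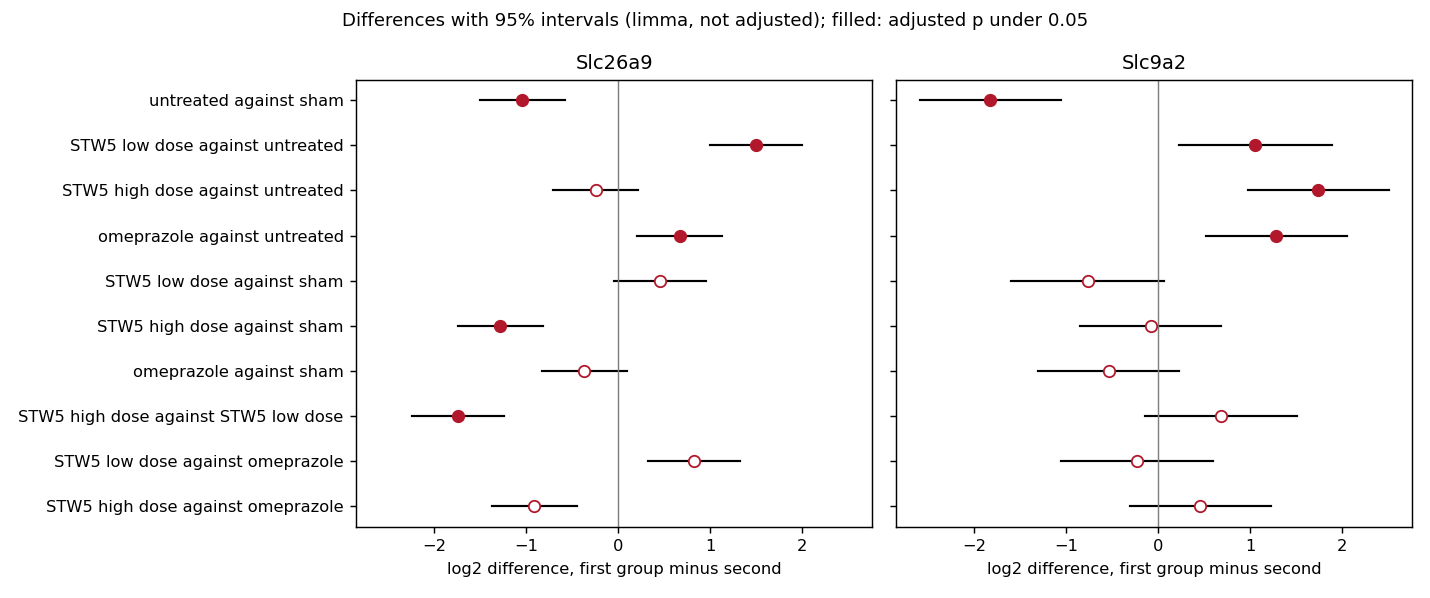
Log2 differences of Slc26a9 and Slc9a2 (horizontal axis, first group minus second) in the 10 comparisons, with limma's 95% intervals. Filled points have an adjusted p under 0.05. High dose against untreated is -0.24 for Slc26a9 and 1.74 for Slc9a2.

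Comparisons with sham and between drugs held few calls among the 9 genes. In low dose against sham 0 members were called, where 0.00735% of all genes were, and 2 had an unadjusted p under 0.05. In omeprazole against sham 0 members were called (1.57% of all genes), and 0 had an unadjusted p under 0.05. In high dose against sham 1 was called, Slc26a9, where 8.55% of all genes were called and 2.49% were called lower. In high against low dose 1 was called, again Slc26a9, where 23.9% were called and 13.2% lower. In low dose against omeprazole (2.41% of all genes called) and high dose against omeprazole (0.221%) 0 members were called by limma, and in each Slc26a9 was the 1 member with an unadjusted p under 0.05.

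Slc4a2 encodes AE2, a basolateral Cl-/HCO3- exchanger found in many epithelia. Its 2 probes did not give the same picture. The probe used, the brighter one, had 1108 to 5339 units, and its group means differed by no more than 0.28 from untreated, with all groups overlapping. The second probe had 410 to 1230 units and separated the untreated group from every other.

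By the second probe, untreated samples had levels of 0.38, 0.37, 0.52 and 0.28, and sham samples -0.48, 0.19, -0.05 and -0.09. Drug-treated samples lay between -0.66 and -0.05. The 4 untreated samples were the highest of the 19, and how many of all genes show this was not counted. For low dose against untreated alone, 15.3% of all genes lay wholly lower. The difference was 0.50 ± 0.17 between untreated and sham (adjusted p = 0.0315). Against untreated it was -0.72 ± 0.18 with the low dose (adjusted p = 0.00603), -0.56 ± 0.17 with the high dose (adjusted p = 0.034) and -0.65 ± 0.17 with omeprazole (adjusted p = 0.00744). The brighter probe gave -0.05, 0.02, 0.25 and 0.28 in these 4 comparisons, none of them called. Over the 19 samples the probes correlated at r = 0.21. Direction and call for Slc4a2 therefore rest on the probe, and the choice of the second probe was made after its values were seen. In rn4 the second probe starts at base 6100935 and the brighter one at base 6100784 of chromosome 4, which lies further downstream on the minus strand.

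**Figure D3:**
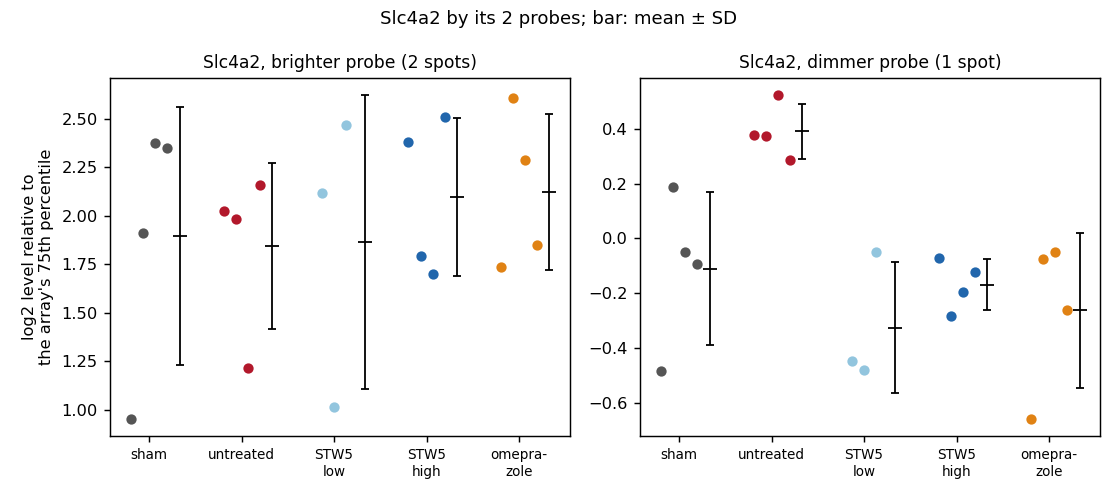
Log2 level of Slc4a2 relative to the array's 75th percentile (vertical axes, scaled separately) by its brighter probe with 2 spots and its dimmer probe with 1 spot. Points are samples and bars are the mean ± SD. The untreated points of the dimmer probe, at 0.28 to 0.52, lie above all others, and those of the brighter probe overlap every group.

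Slc4a4 encodes NBCe1, a Na+-HCO3- cotransporter that loads epithelial cells with bicarbonate. Its probe gave 28.4 to 193 units, above background on 20 of 20 arrays. Untreated levels were -3.31, -3.35, -3.67 and -3.17, and low-dose levels -4.36, -4.31 and -3.69. The low-dose samples lay below the untreated ones without overlap, as for 15.3% of all genes, by 0.74 ± 0.40 in the mean, a difference that did not pass the test (adjusted p = 0.149). Sham replicate 4 was the highest of all samples at -1.86, while the other sham samples lay between -4.29 and -3.34. The second probe was above background on 11 of 20 arrays and on 0 of the low-dose ones. It gave low dose as lower than untreated as well, by at least 1.07-fold, a bound that was not tested. The limma test of its measured difference of -1.31 ± 0.49, which includes values below background, gave an adjusted p of 0.046.

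Car2 encodes the cytosolic carbonic anhydrase 2, abundant in red blood cells, parietal cells and many epithelia. It varied most of the 7 genes, from 48.4 to 1869 units over 10 spots per array. Sham levels were -3.38, 0.16, -2.5 and -1.45, and untreated levels -0.47, 1.12, 0.45 and -2.51. In untreated animals 3 samples were above most sham samples and replicate 4 was as low as sham replicate 3, so that the difference of 1.44 ± 0.86 did not pass the test (adjusted p = 0.212). Low-dose levels were -3.60, -1.56 and -2.11, all but the lowest within the range of untreated, and the difference of -2.07 ± 0.93 from untreated did not pass either (adjusted p = 0.0877). Without untreated replicate 4 it did (-2.79, adjusted p = 0.0224). High-dose levels were -1.67, -1.21, -1.13 and -0.04, and omeprazole levels were -2.12, 0.18, 0.30 and -2.41. Each of these means differed from untreated by -0.66 ± 0.86. Red blood cell markers, of which 0 of 4 tested changed with the operation, ranged in summed level (5 on the array) from 2.46 to 81.8 over the samples, and their part in the spread of Car2 was not tested.

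Car12 encodes the membrane-bound carbonic anhydrase 12, whose active site faces outside the cell. Its signal lay near background, at 8.72 to 31.9 units, and was well above it on 10 of 20 arrays, among them all 4 omeprazole arrays and 1 or 2 of each other group. No comparison was called. The difference with the operation was -0.21 ± 0.36 and that of omeprazole against untreated 0.49 ± 0.36 (adjusted p = 0.33), with a 95% interval of -0.28 to 1.26.

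Atp4a encodes the catalytic subunit of the gastric H+/K+-ATPase, the pump to which activated omeprazole binds. Neither of its probes showed more than a near-background signal. The upstream probe, a single spot, was well above background on 8 of 20 arrays, 0 sham, 1 untreated, 2 low-dose, 2 high-dose and 3 omeprazole, and never exceeded 27.4 units. The near-identical low-dose arrays 1 and 2 read 22.8 and 15.5 units, the one above background and the other not. The downstream probe was well above background on 1 array, sham replicate 4, at 18.4 units, and lay between 3.02 and 9.2 units elsewhere.

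The tested upstream probe gave no called difference. Untreated differed from sham by -0.02 ± 0.33, omeprazole from untreated by 0.47 ± 0.33 (adjusted p = 0.302) and omeprazole from sham by 0.45 ± 0.33 (adjusted p = 0.626). The low dose was 0.89 ± 0.36 above untreated (adjusted p = 0.0591), and this was called in 8 alternatives, such as when low-dose replicate 4 (1.21, adjusted p = 0.0195) or untreated replicate 4 (1.07, adjusted p = 0.0338) was left out. The dimmest spots marked well above background read 12.6 to 18.3 units depending on the array, so this probe sat at the edge of what the arrays measured, and these results do not show that Atp4a was unchanged.

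The other pump subunit had its highest signal on the same array as the downstream probe, as had Tff1, Gkn1, Gkn2 and Tff2, but not Pgc, Muc6 or Gast. Atp4b, the beta subunit that accompanies Atp4a in parietal cells, was well above background on 3 arrays, at 87.9 units in sham replicate 4, 40.7 in low-dose replicate 4 and 11.6 in high-dose replicate 4. Its median over 20 arrays was 5.14 units, and it was not tested. Across the 20 arrays Atp4b signals correlated at r = 0.82 with the downstream Atp4a probe and at r = -0.03 with the upstream one, and the probes with each other at r = 0.13. These correlations are descriptions, and the first rests on few arrays above background. In sham replicate 4 Gkn2 and Tff2 also reached their highest signals, 5244 and 292 units, against at most 232 and 40.6 units on any other array.

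**Figure D4:**
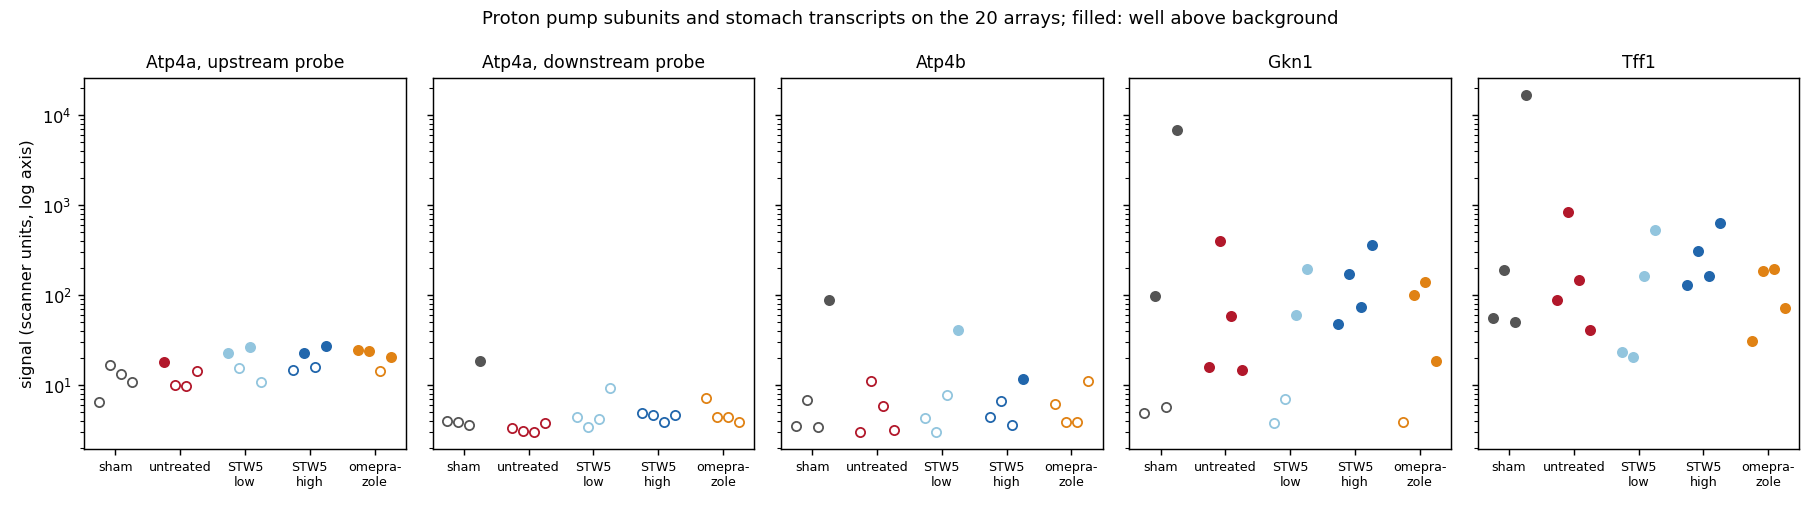
Signal in scanner units (vertical log axis) of both Atp4a probes, Atp4b, Gkn1 and Tff1 on the 20 arrays by group. Filled points are well above background. The highest points of the downstream Atp4a probe, Atp4b, Gkn1 and Tff1 belong to sham replicate 4, and the upstream Atp4a probe stays at or under 27.4 units.

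Atp12a, the related H+/K+-ATPase of colon and other non-gastric tissue, was above background on 7 of 20 arrays at 4.96 to 23.4 units, and its difference of -0.74 with the operation was not called (adjusted p = 0.196). Kcne2, a potassium channel subunit that serves acid secretion in parietal cells, was above background on 18 arrays. It fell by 1.70 ± 0.38 with the operation (adjusted p = 0.00324). Against untreated it rose by 1.49 ± 0.38 with the high dose (adjusted p = 0.0229) and by 1.41 ± 0.38 with omeprazole (adjusted p = 0.0118), and with the low dose it was 0.93 higher, which was not called (adjusted p = 0.084).

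Slc9a3 encodes NHE3, the main Na+/H+ exchanger of sodium-absorbing gut epithelia. One of its probes was above background on 1 array, high-dose replicate 2, at 16.9 units, and the other on 0 of 20 arrays, at 2.81 to 4.11 units. Cftr encodes a chloride and bicarbonate channel of secretory epithelia. One of its probes was above background on 2 arrays, sham replicate 2 at 17.9 and omeprazole replicate 2 at 18.5 units, and the other on 0 arrays, at 2.90 to 6.24 units. Neither gene was tested, and nothing can be said of changes below the array's background.

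The genes most like each member over the 19 samples are given as a description. For Slc26a9 these were Clec16a (r = 0.948), Sbf1 (0.948) and Dgat2 (0.940), and for Slc9a2 they were Rxrg (0.961), Mlycd (0.918) and Fam53b (0.917). For Car2 they were Pthlh (0.907), Cfi (0.894) and Nat8l (0.881). The highest values were 0.869 for Slc4a4 with Npr2, 0.846 for Slc4a2 with Sh3bp4, 0.870 for Car12 with Acp1 and 0.760 for Atp4a with Etv3l.

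Around the 9 genes, 105 others of acid-base transport and sensing were listed, of which 103 were on the array and 77 were tested. With the operation 14 rose and 14 fell, and their median difference of 0.03 stood beside -0.08 for all genes. These 28 are 36.4% of the 77, near the 32.9% called among all genes, and 26 of them were also called without sham replicate 4. The counts by list with the operation below stand beside the same 32.9%. That share is of the fit with all sham samples. For counts without a sham replicate, no share of all genes is given. Against untreated, 16 rose and 17 fell with the low dose (42.9%, against 37.6% of all genes), 4 rose and 4 fell with the high dose (10.4%, against 9.49%), and 13 rose and 13 fell with omeprazole (33.8%, against 27.7%).

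Among the other Na+/H+ exchangers, Slc9a9, an exchanger of endosomes, fell by 1.01 ± 0.23 with the operation (adjusted p = 0.0038). Slc9a9 was 2.33 ± 0.23 higher with the high dose (adjusted p = 4.18e-06) and 2.25 ± 0.23 higher with omeprazole than in untreated (adjusted p = 6.22e-06). With the low dose, on the slide of the untreated arrays, it was 0.87 ± 0.25 higher (adjusted p = 0.0118). Its mean was -1.58 and -1.66 in these groups, which share slide 3, against -2.90 in sham, -3.90 in untreated and -3.03 in low-dose samples. For high dose and omeprazole against untreated, slide and group cannot be told apart.

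Of 6 other SLC4 transporters, 2 rose, Slc4a3 and Slc4a7, and 1 fell with the operation. The latter was Slc4a9, by 2.03 ± 0.43 (adjusted p = 0.00231), which rose by 2.37 ± 0.46 with the low dose (adjusted p = 0.00107) and by 1.42 ± 0.43 with omeprazole (adjusted p = 0.0212). Slc4a10 was higher than in untreated with the high dose (1.03 ± 0.20, adjusted p = 0.00447) and omeprazole (1.21 ± 0.20, adjusted p = 0.000521). Both groups lie on slide 3, so here too slide and group cannot be told apart. With the low dose, on the slide of the untreated arrays, the difference was 0.35 ± 0.21 and was not called (adjusted p = 0.207). Of 4 SLC26 exchangers 1 rose, Slc26a11, and none when sham replicate 2 was left out.

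Among 12 other carbonic anhydrases, Car7, Car3 and Car14 fell and Car4 rose with the operation. Car7, a cytosolic form, fell by 2.04 ± 0.44 (adjusted p = 0.00253). Without sham replicate 4 the count was 1 rose and 2 fell, and without sham replicate 2 it was 0 and 4. Car3 is abundant in skeletal muscle, and 5 of 9 skeletal muscle markers fell as well, where 17.9% of all genes were called lower. Their summed level was 827 to 1511 in sham and 360 to 934 in untreated samples. The part of muscle in the Car3 result was not tested.

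Of 21 subunits of the V-type H+-ATPase, the pump that acidifies lysosomes and endosomes, 2 rose and 2 fell with the operation, where 32.9% of all genes were called. Tcirg1, a subunit of lysosomes and osteoclasts, rose by 1.74 ± 0.28 (adjusted p = 0.000409), and Atp6v0c rose by 0.86. It was Atp6v1c2 and Atp6v0e2 that fell. Without sham replicate 2, 4 rose and 2 fell, and without sham replicate 4, 2 rose and 3 fell. Tcirg1 fell against untreated with the low dose by 1.73 ± 0.30 (adjusted p = 0.00052), with the high dose by 1.36 ± 0.28 (adjusted p = 0.00703) and with omeprazole by 1.70 ± 0.28 (adjusted p = 0.000507). Of 5 proton-coupled monocarboxylate genes, Slc16a3, the lactate exporter of glycolytic cells, rose by 1.95 ± 0.42 (adjusted p = 0.00267).

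Of 5 chloride channels and related transporters, Kcnn4, a calcium-activated potassium channel, rose by 2.70 ± 0.46 (adjusted p = 0.000626), and Atp1b1 and Ano1 fell. Against untreated Kcnn4 fell by 2.71 ± 0.50 with the low dose (adjusted p = 0.000738), by 2.35 ± 0.46 with the high dose (adjusted p = 0.00557) and by 2.00 ± 0.46 with omeprazole (adjusted p = 0.0052). Without sham replicate 2 the count was 3 rose and 2 fell. Of 10 scaffolds and regulators, Nherf2, which tethers exchangers such as NHE3, rose by 1.51 ± 0.29 (adjusted p = 0.00132), and Wnk1 and Stk39 fell.

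Of 7 acid sensors tested, 5 rose and 1 fell with the operation, where 32.9% of all genes were called. Gpr4, a proton-sensing receptor of vessel walls among others, was above background on 20 of 20 arrays and rose by 2.06 ± 0.40 (adjusted p = 0.00134). Of the others that count among the 5, Gpr65, a proton-sensing receptor of leukocytes, was above background on 1 sham and 4 untreated arrays. Adcy10, a bicarbonate-activated adenylyl cyclase, was so on 1 sham and 3 untreated arrays. Asic4 of the acid-sensing ion channel family was above background on 0 sham, 4 untreated, 0 low-dose, 3 high-dose and 0 omeprazole arrays, and at least 1.43-fold higher in untreated than in sham. Asic4 was tested only because of the groups where it is high, so its place in the counts is a description and lends them no support. The heat and acid channel of sensory neurons, Trpv1, fell by 1.65 ± 0.48 (adjusted p = 0.0156). Without sham replicate 4 the count was 4 rose and 1 fell.

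With the low dose 5 acid sensors fell and 1, Trpv1, rose against untreated, and with omeprazole 6 fell and 0 rose, where 37.6% and 27.7% of all genes were called. With the high dose 0 of 7 were called (9.49% of all genes). In the high dose group 4 of 7 were called higher than in the low dose group. Of all genes, 23.9% were called there in either direction and 13.2% were called lower. Gpr4 fell by 2.58 ± 0.43 with the low dose (adjusted p = 0.000431), which lies within slide 2. Gpr65 was above background on 0 low-dose arrays and at least 2.36-fold lower there than in untreated.

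Markers of macrophages and of vessel walls moved with the sensors that rose with the operation, while Trpv1 moved the other way. All 8 macrophage markers rose with the operation, where 32.9% of all genes were called in either direction and 17.9% were called lower. Their summed level was 13.4 to 74.2 in sham, 140 to 282 in untreated, 18.3 to 51.1 in low-dose, 80.0 to 146 in high-dose and 33.7 to 67.8 in omeprazole samples. Of 6 endothelial markers 3 rose, with 5.36 to 12.0 in sham, 13.1 to 17.6 in untreated, 4.07 to 7.15 in low-dose, 10.9 to 15.3 in high-dose and 7.47 to 12.5 in omeprazole samples. Other cell markers rose with the operation as well, 4 of 6 neutrophil and 5 of 6 T cell markers tested. The part of any of these cell types in the sensor results was not tested.

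**Figure D5:**
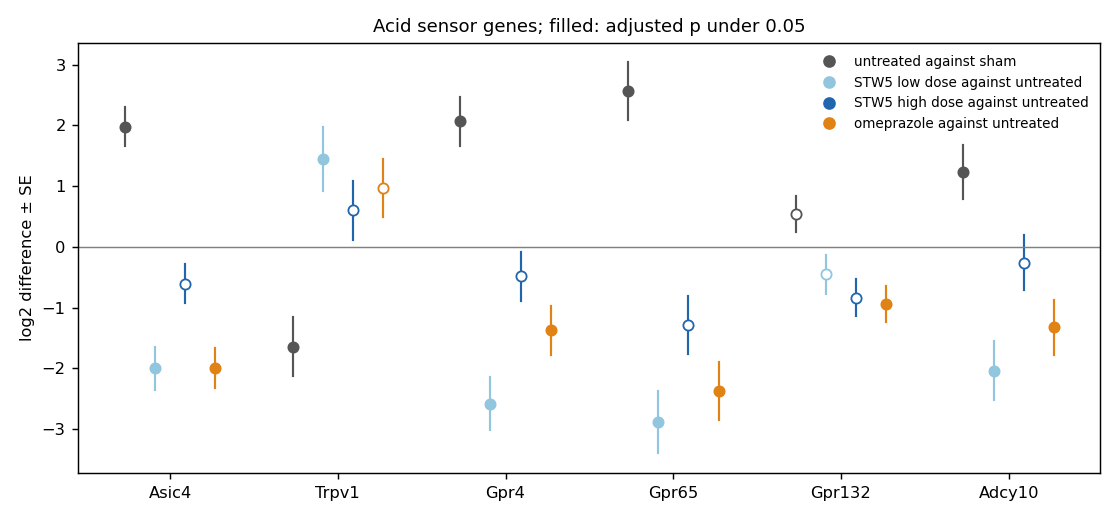
Log2 difference ± SE (vertical axis) of 6 acid sensor genes in untreated against sham and in each drug group against untreated. Filled points have an adjusted p under 0.05. For Gpr4 the operation gives 2.06 and the low dose -2.58, and none of the high-dose points is filled. Points of Asic4, Gpr65, Gpr132, Adcy10 and Trpv1 rest in part on signals below background.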

How the data were processed

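The deposited scanner files give a background-subtracted intensity per spot, made by the authors with Feature Extraction 10.7.3.1 and with probe coordinates on rn4, per the file headers. In the deposited value table each entry is a ratio of signal to the median of its array, and it served as an alternative. Of its 20 columns 12 match their own scanner file and 8 that of the other STW5 dose. From 58717 features, log2 signal minus each array's 75th percentile was averaged per probe (30367 probes) without outlier spots. A probe entered (19921 did) if Feature Extraction marked 50% of its spots as well above background on 4 arrays or more, and the brightest probe stood for its gene. The 5 groups, 10 comparisons, were fitted in limma 3.58.1 (R 4.3.3) with 14 residual degrees of freedom and Benjamini-Hochberg adjustment. The fit was tested on simulated data. Same-numbered arrays did not deviate together (40 pairs, correlations from -0.32 to 0.58, median 0.08). The number of arrays limits the precision. Members and lists were chosen with earlier results of these data known. Named from the other lists were the 10 genes with the smallest p in untreated against sham, 4 per drug comparison, and Atp4b and Atp12a. Some genes of these lists are not reported here. Kcne2, Trpv1 and other genes outside this rule were named after their values were seen.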

Additional observations from a re-analysis of the deposited data

Results flagged for a closer look

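Of 60 groups of 4 arrays of a member probe, 2 held a sample far from the other 3, while chance alone flags about 1 in 20. By the Slc26a9 probe used, untreated replicate 3 lay at -3.92, with the nearest at -4.11, and it was the highest of a group that spans little. By one Slc9a3 probe, which was below background there, sham replicate 4 lay at -6.72, with the nearest at -6.19. Slc26a9 also differed between the STW5 dose groups, which were both compared with untreated: the direct difference of high minus low dose was -1.74 ± 0.24 (limma adjusted p = 0.000241). The arrays of these doses lay on different slides, and the dose names are not settled.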

How the results depend on the processing

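Of 9 called differences of members, the fall of Slc26a9 with the operation was called in 21 of 21 alternatives (-1.43 to -0.57) and that of Slc9a2 in 20 of 20 (-2.03 to -0.88). The value table, which exchanges the STW5 doses, turned Slc26a9 to -0.24 (low dose) and 1.5 (high dose) against untreated, to -1.28 and 0.46 against sham and to 1.74 for high against low dose. The second Slc4a2 probe, an alternative chosen after seeing the data, gave 0.50 for untreated against sham and -0.72, -0.56 and -0.65 for low dose, high dose and omeprazole against untreated.

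Counts of members called moved as follows, and the cause was not tested. Car12, Atp4a and Slc4a4 were among the members called under some of these settings. For low dose against untreated (2) they were 4 with all 20 arrays as separate samples, 4 with the replicate block, 1 with quantile normalization, 1 with the value table and 1 with only these groups fitted. In that comparison Atp4a was also gained with median scaling (limma adjusted p = 0.0351). It was gained as well with dim signals raised to the lowest signal well above background (adjusted p = 0.0221). With normexp Car12 and Atp4a were gained and Slc9a2 was lost, and with array weights Atp4a was gained and Slc9a2 was lost. For high dose against untreated (1) the counts were 0 with normexp and 2 with the value table, and for omeprazole against untreated (2) 1 with median scaling, 1 with quantile normalization and 0 with normexp. Against sham they were 1 for the low dose with array weights and 1 with the value table (0), 0 for the high dose with the value table (1), and 1 for omeprazole with array weights (0). For high against low dose (1) they were 3 with normexp and 2 with array weights. For low dose against omeprazole (0) they were 1 with 20 arrays, the replicate block, median scaling, quantile normalization or array weights and 2 with normexp. For high dose against omeprazole (0) they were 1 with the replicate block, array weights or only these groups. Leaving out 1 sample gave 1 to 3 for low dose and 0 to 2 for omeprazole against untreated, 0 to 1 for low dose against omeprazole, and the main count elsewhere. The replicate numbers share only a name: 6 of 20 arrays correlated best with their own number, and the block changed no member call but those named.

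Counts over all genes moved by over 1.5 times in several comparisons. With only the groups compared, untreated against sham gave 2263 in place of 4474, low dose against untreated 2797 in place of 5112, high dose against untreated 480 in place of 1291, and high dose against omeprazole 1173 in place of 30. Array weights gave 7091 in place of 1162 for high dose against sham, 2587 in place of 1 for low dose against sham, 3561 in place of 213 for omeprazole against sham, 6342 in place of 3252 for high against low dose, 2728 in place of 328 for low dose against omeprazole and 2256 in place of 30 for high dose against omeprazole. Scaling moved the median of all genes by at most 0.20 (low dose against omeprazole, median scaling). Of 1175 differences not called under either setting, 102 had the opposite sign and 77 moved by over 1 SE. Signals near background limit Atp4a, Car12, Slc9a3 and Cftr.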
